A study of Mus musculus with 8 samples.

Results

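Peaks of 2 methyl-CpG-binding domain proteins, MBD5 and MBD6, on the transcripts of 10 Polycomb repressive complex genes were examined in mouse embryonic stem cells. The genes were Ezh2, Suz12, Eed, Jarid2, Mtf2, Rnf2, Ring1, Kdm2b, Pcgf6 and L3mbtl2, which are 10 of the 21951 protein-coding genes of the annotation. They were chosen by name, and a peak was counted to a gene when its midpoint lay in the gene body on the same strand (GENCODE release M21, mouse build mm10). The gene bodies held 87 of the 29555 peaks in the lists of the 4 libraries. A peak was found in 8 of the 10 genes, and Ring1 and Pcgf6 had none, as had 17683 of the 21951 protein-coding genes.

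CLIP-seq (crosslinking, immunoprecipitation and sequencing) was used to find the RNA that each protein held. In this assay ultraviolet light fixes a protein to the RNA it touches, and the RNA pieces left after digestion are sequenced. The 2 groups were wild-type mouse embryonic stem cells that stably overexpressed Flag-MBD5 and wild-type cells that stably overexpressed Flag-MBD6, each from the human coding sequence, delivered by lentivirus, under hygromycin B and in medium with LIF, CHIR99021 and PD0325901. There were 2 CLIP libraries per protein, and the 4 input libraries were not analysed on their own. The tagged libraries are called MBD5 and MBD6 libraries below. The lines carry their own mouse proteins as well, the tagged proteins are human, and how many clones stand behind each line is not given in the sources used here. The sample characteristics and the study's methods name a Flag antibody, whereas the extraction protocol in the labels names one against MBD6, and the source field reads embryos although the titles give mESC.

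The MBD5 lists held 5362 and 5388 peaks, from an estimated 478790 and 500143 reads, and the MBD6 lists 9218 and 9587 peaks, from an estimated 983918 and 1111740 reads. Replicates differed by less than sampling noise, which gives a chi-square per degree of freedom of 1 under independent sampling. It was 0.496 between the MBD5 libraries, at 685 sites with at least 60 reads in both MBD6 libraries. Between the MBD6 libraries it was 0.414, at 277 sites with at least 60 reads in both MBD5 libraries. At the 14 Polycomb gene sites with a peak in all 4 libraries, a choice that can narrow the spread, it was 0.408 and 0.387. Between the proteins it was 1.94 to 3.06 at these 14 sites. At 469 sites of all genes, chosen for a mean of at least 60 reads, it was 3.74 to 4.39 between the proteins, against values under 1 between replicates. For this reason a protein counts as 1 sample, its 2 values are given with no SD, and no test over libraries was made (an exact permutation test of 2 libraries against 2 cannot give a two-sided p under 0.333). Of 10 embryonic stem cell markers, 9 had a peak in some library. Overlapping peaks in both libraries of a protein were found in 4 of them for MBD5 and 6 for MBD6. Of 8 fibroblast markers, which feeder cells would bring, 6 had no peak, as had 17683 of all 21951 protein-coding genes. Of the other 2 fibroblast markers, Fn1 had 13 to 19 peaks per library, and Vim had 1 peak in 1 library of each protein. Their part in the results was not tested.

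Polycomb proteins keep developmental genes silent in embryonic stem cells. Polycomb repressive complex 2 (PRC2) methylates histone H3 through its catalytic subunit EZH2, which needs SUZ12 and EED, and accessory subunits such as JARID2 and MTF2 bring it to CpG islands. Polycomb repressive complex 1 (PRC1) attaches ubiquitin to histone H2A through RING1 or RNF2, and its variant forms hold targeting subunits such as KDM2B, PCGF6 and L3MBTL2. MBD5 and MBD6 are known as partners of PR-DUB, the deubiquitinase that takes the PRC1 mark off H2A. The peaks described here lie on the mRNAs that encode these subunits and say nothing of the proteins.

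The RNA at the strongest site of 7 of the 8 genes with a reproducible peak (all but Jarid2) is printed first, since the results below refer back to these places. A site is the union of overlapping peaks of all 4 libraries on the same strand, and the strongest is the one with the highest mean fold enrichment. The fold is the deposited ratio of summit signal to a background rate, with 1 added to both. A deeper library thus has a higher fold at the same depth-scaled summit and background. Whether the background rate came from the CLIP library itself or from an input library is not given in the sources used here. Each run has 60 bases of the sense strand of the GENCODE transcript, 5′ to 3′, and all are coding sequence. Capitals mark the base just before the 5′ end of a peak in a library. RNase T1, the enzyme used here, cuts RNA after G. The bases before the 5′ ends of the MBD5 peaks of Ezh2 and Mtf2 and of 1 MBD6 peak of Eed lie outside the run. No transcript of another gene held the first 30 bases of any of these sites.
Ezh2 exon 10 (chr6:47545805-47545864, minus strand): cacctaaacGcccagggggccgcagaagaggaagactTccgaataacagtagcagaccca
Suz12 exon 14 (chr11:80029156-80029215, plus strand): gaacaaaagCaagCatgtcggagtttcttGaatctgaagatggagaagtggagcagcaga
Eed exon 1, from the start codon (chr7:89980466-89980525, minus strand): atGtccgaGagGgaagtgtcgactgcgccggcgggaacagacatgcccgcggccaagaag
Mtf2 exon 15 (chr5:108106593-108106652, plus strand): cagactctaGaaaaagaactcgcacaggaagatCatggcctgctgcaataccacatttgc
Rnf2 exon 5 (chr1:151476176-151476235, minus strand): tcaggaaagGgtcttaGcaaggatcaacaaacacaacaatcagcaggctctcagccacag
Kdm2b exon 16 (chr5:122882124-122882183, minus strand): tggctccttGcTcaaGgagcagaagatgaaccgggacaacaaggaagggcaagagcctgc
L3mbtl2 exons 14 and 15, across the spliced junction (chr15:81684945-81685436, plus strand): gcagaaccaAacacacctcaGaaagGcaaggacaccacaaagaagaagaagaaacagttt

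Most of the 10 genes held reproducible peaks of both proteins. A reproducible region, in which peaks of both libraries of a protein overlapped by at least 1 bp, was found for MBD5 in 7 of the 10 genes, against 7.8% of all protein-coding genes. For MBD6 it was found in 8 of 10, against 13.8%. A site with a peak in all 4 libraries was present in 7 of 10, against 7.35%. The background includes genes that these cells do not express, and the peak lists hold no RNA levels. Coding length differed as well, with a median of 1944 nt in the 10 genes and 1158 nt in all. Among the 11290 protein-coding genes whose coding length lies between the shortest and the longest of the 10 (1008 to 3927 nt), 8.88% had an MBD5 region, 16.8% an MBD6 region and 8.40% a site in all 4 libraries. The genes were named with earlier results of these lists known, so no test was made of these shares. How much RNA a gene made and how much of that RNA was bound cannot be told apart here.

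The 10 genes had 17 and 18 peaks in the MBD5 libraries and 25 and 27 in the MBD6 libraries. The ratio of the means was 1.49, against 1.75 over all peaks and an estimated depth that was 2.14 times as high for MBD6. With the same number of peaks taken from each library, the ratio was 1 and the reproducible MBD6 regions fell from 23 to 14, so depth and protein cannot be told apart in these counts. The peaks merged into 29 sites. Of these, 14 had a peak in all 4 libraries, 3 in 3 libraries, 3 in 1 library of each protein, 7 in both MBD6 libraries and no MBD5 library, and 2 in 1 MBD6 library. No site had peaks of MBD5 alone. Over the whole lists, 3566 of the 12074 sites had a peak in all 4 libraries. How many of all sites had peaks of 1 protein alone is not given here, so those counts have no comparison.

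**Figure D1:**
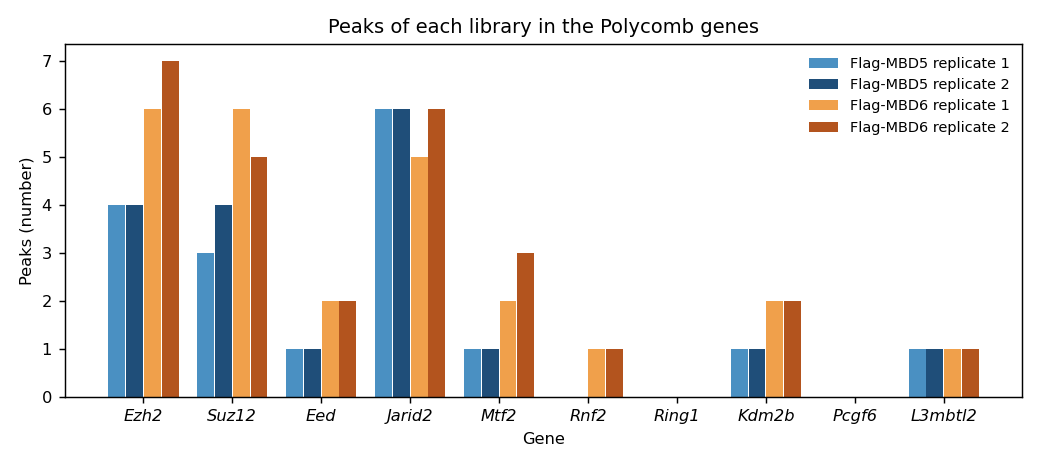
Number of peaks (vertical axis) of each of the 4 CLIP libraries (bars) in the 10 Polycomb genes (horizontal axis). Ezh2, Suz12 and Jarid2 hold most of the peaks, with 3 to 7 in each library, and Ring1 and Pcgf6 have none.

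The catalytic subunit gene Ezh2 (chr6:47530139-47595341, minus strand) had 4 peaks in each MBD5 library and 6 and 7 in the MBD6 libraries. Its strongest site lay in exon 10 of 20 (chr6:47545571-47545854) and began at codon 359 of 746 in the library with its highest fold. The fold enrichment there was 14.4 and 13.4 in the MBD5 libraries and 28.2 and 26.8 in the MBD6 libraries. The summit held 17 and 16 reads for MBD5 and 42 and 55 for MBD6, or 35.5, 32.0, 42.7 and 49.5 reads per 1000000 estimated reads (RPM). Both MBD6 libraries were above both MBD5 libraries, on either scale. The 5′ ends of the peaks at this site were spread over 70 nt, so it holds more than 1 start.

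A second Ezh2 site found in all 4 libraries lay in exon 6, from codon 183 (chr6:47554016-47554201). Its fold enrichment was 7.98 and 11.1 for MBD5 and 19.7 and 20.1 for MBD6, with 18.8, 26.0, 29.5 and 27.9 summit RPM. The third, in exon 9 from codon 304 (chr6:47547265-47547419), had folds of 7.98, 7.90, 12.5 and 10.1 in the same order and 18.8, 18.0, 18.3 and 18.0 RPM. At the exon 9 site the RPM of the libraries overlapped and the folds, which also rise with depth, did not. The other 4 Ezh2 sites had folds between 7.18 and 13.9. They lay at the start codon in exon 2 (3 libraries), in exon 3 (1 library), in exon 7 (3 libraries) and in exon 11 (both MBD6 libraries).

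Suz12 (chr11:79993106-80034123, plus strand), the scaffold subunit gene, had 3 and 4 peaks for MBD5 and 6 and 5 for MBD6. The strongest site was in exon 14 of 16, from codon 542 of 741 (chr11:80029166-80029448). Its fold was 19.3 and 15.2 in the MBD5 libraries and 36.3 in each MBD6 library, from 26, 19, 71 and 75 summit reads. Scaled for depth these were 54.3, 38.0, 72.2 and 67.5 RPM, higher in both MBD6 libraries. Exon 11, from codon 406 (chr11:80024918-80025093), gave folds of 9.35, 10.4, 14.8 and 15.8 and 29.2, 32.0, 34.6 and 36.9 RPM. Exon 15, from codon 603 (chr11:80030014-80030192), gave folds of 7.13, 7.60, 13.6 and 15.6 and 18.8, 18.0, 26.4 and 24.3 RPM. All 3 sites had higher values in both MBD6 libraries than in either MBD5 library.

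The Suz12 site in exon 8, from codon 278 (chr11:80015143-80015315), had the highest reads of the 7 sites with peaks in both MBD6 libraries only. Its folds were 17.8 and 18.4, from 34 and 37 summit reads, or a mean of 33.9 RPM. At an equal share a MBD5 library would have held 16.2 or 17.0 reads there, whereas the weakest MBD5 peaks in the 10 genes rested on 8 and 9 reads. The other 6 were Suz12 exon 16, Ezh2 exon 11, Eed exon 2, Rnf2 exon 5, Kdm2b exon 19 and a non-coding Mtf2 exon. There the same share would have given 5.91 to 10.2 reads. Over all genes, the weakest peak of each MBD5 library rested on 5 reads. Whether depth lies behind the lack of a MBD5 peak at these sites was not tested. The reads of libraries without a peak at a site are not in the lists. The Suz12 exon 8 site was singled out after its values were seen.

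Eed (chr7:89954654-89980983, minus strand) encodes the subunit that reads the PRC2 mark. It had 1 peak in each MBD5 library and 2 in each MBD6 library. The site shared by all libraries began at the start codon in exon 1 of 12 (chr7:89980302-89980525), with folds of 21.1 and 28.3 for MBD5 and 47.2 and 47.7 for MBD6. These were the highest MBD6 folds in the 10 genes, and the mean of 36.1 stood at the 93.7th percentile of the 3566 sites found in all 4 libraries. The reads went the other way, with 94.0 and 102 RPM for MBD5 and 72.2 and 67.5 for MBD6. The background rates were 1.18 and 0.841 reads in the MBD5 libraries and 0.524 and 0.593 in the deeper MBD6 libraries, so the ratio of fold to reads differed between the proteins. The second site (exon 2, from codon 47) had folds of 11.1 and 15.1 in the MBD6 libraries alone.

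Jarid2 (chr13:44729474-44921643, plus strand), whose product recruits PRC2, was the gene with the most MBD5 peaks, 6 in each library, against 5 and 6 for MBD6. Its strongest site lay in exon 5 of 18, from codon 175 of 1234 (chr13:44884731-44884957). The folds were nearly level, at 33.5, 36.6, 35.4 and 37.3, from 46, 47, 56 and 62 summit reads. In RPM these were 96.1 and 94.0 for MBD5 and 56.9 and 55.8 for MBD6, so both MBD5 libraries were higher. The 5′ ends of all 4 libraries fell within 3 nt.

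The other 3 Jarid2 sites found in all libraries had the same order of reads. The start region in exon 1 (chr13:44731723-44732027), where the peak began 149 nt upstream of the start codon, had 100, 84.0, 71.1 and 66.6 RPM and folds of 12.8, 28.4, 44.1 and 26.7. Exon 7, from codon 433 (chr13:44902616-44902967), had 56.4, 74.0, 36.6 and 45.0 RPM and folds of 11.7, 16.6, 14.1 and 18.7. Exon 8, from codon 781 (chr13:44906619-44906826), had 27.2, 34.0, 15.2 and 22.5 RPM and folds of 8.73, 12.6, 9.93 and 15.4. In each, both MBD5 libraries had more RPM than either MBD6 library, while the folds of the proteins overlapped. A site in exon 7 from codon 343 had peaks in 3 libraries, and sites in exons 3 and 4 had 1 library of each protein, with folds of at most 8.97 in the 3.

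Mtf2 (chr5:108065674-108109004, plus strand), the gene of a PRC2 subunit that binds CpG-rich DNA, had 1 peak in each MBD5 library and 2 and 3 in the MBD6 libraries. Its site in all 4 libraries was in the last exon, 15 of 15, from codon 480 of 593 (chr5:108106603-108106974). The folds were 10.8 and 10.7 for MBD5 and 36.6 and 36.1 for MBD6, from 13, 13, 58 and 60 summit reads. The 27.2 and 26.0 RPM of MBD5 were below the 58.9 and 54.0 of MBD6. The MBD5 and MBD6 peaks overlapped but did not start at the same base, as their 5′ ends were spread over 75 nt. The site lies within the body of Tmed5 on the other strand, but peaks were called for each strand on its own. Of the sites in all 4 libraries, Ezh2 exon 9, Suz12 exons 11 and 14 and L3mbtl2 exon 15 also lie within a gene on the other strand. The other Mtf2 sites, in a non-coding exon and in exon 2, had MBD6 peaks only, with folds of 7.64 to 9.89.

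Of the genes of the 2 PRC1 ubiquitin ligases, Rnf2 (chr1:151458004-151500955, minus strand) had 1 site and Ring1 (chr17:34020792-34024680, minus strand) had none. The Rnf2 site was in exon 5 of 8, from codon 127 of 336 (chr1:151476037-151476225), with folds of 10.5 and 8.16 from 15 and 12 summit reads in the MBD6 libraries and no MBD5 peak. At the MBD6 share a MBD5 library would have held 6.23 or 6.51 reads, fewer than any MBD5 peak in these genes had. The weakest peak over all genes had 5 reads in each MBD5 library. The lack of a peak on Ring1 says only that none passed the threshold (q under 0.01) at this depth.

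Among the genes of variant PRC1, Kdm2b and L3mbtl2 had a site in all libraries and Pcgf6 (chr19:47033617-47050906, minus strand) had no peak. Kdm2b (chr5:122870665-122989823, minus strand) encodes the subunit that binds unmethylated CpG islands. Its site in exon 16 of 23, from codon 721 of 1309 (chr5:122881863-122882173), had folds of 6.88, 10.6, 17.7 and 19.5 and 29.2, 26.0, 26.4 and 27.0 RPM. The folds, which also rise with depth, were higher in both MBD6 libraries, while the depth-scaled reads overlapped. L3mbtl2 (chr15:81663889-81688315, plus strand), which encodes a histone-binding subunit, had 1 peak per library, in exon 15 of 17 from codon 610 of 703 (chr15:81685387-81685553), with folds of 9.14, 11.5, 18.1 and 12.4 and 25.1, 34.0, 30.5 and 22.5 RPM. These reads overlapped between the proteins. A second Kdm2b site, in exon 19 from codon 893, was found in the MBD6 libraries alone, with folds of 7.57 and 10.4.

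**Figure D2:**
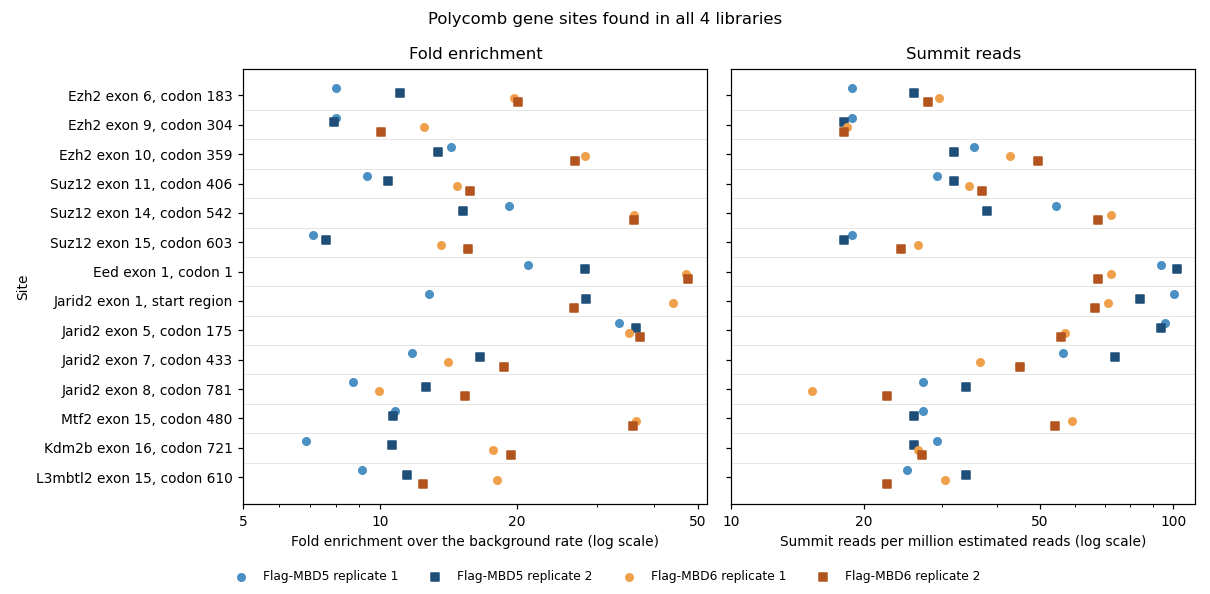
Fold enrichment over the background rate (left, log scale) and summit reads per 1000000 estimated reads (RPM) (right, log scale) at the 14 Polycomb gene sites found in all 4 libraries, 1 point per library. Both MBD6 folds are above both MBD5 folds at 10 sites, while the reads of the 4 Jarid2 sites and the Eed site are higher in both MBD5 libraries. The fold also rises with depth.

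Scaled for depth, the 14 sites differed in which protein had more reads. The peak calling kept at most 5 identical aligned reads at a position. What this cap did to the reads of strong sites in the deeper libraries was not tested. The ratio of MBD6 to MBD5 reads was at least 2 at 1 of the 14 sites, Mtf2 exon 15, against 0.869% of the 3566 sites in all libraries. The opposite difference of at least 2-fold was seen at 0 of 14, against 9.93%. Both MBD6 libraries had more RPM than either MBD5 library at 6 of 14 sites, against 16.3%, and the reverse held at 5 of 14, against 56.4%. The 6 were 2 Ezh2 sites (exons 6 and 10), the 3 Suz12 sites and Mtf2 exon 15, and the 5 were the 4 Jarid2 sites and Eed exon 1.

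The ratio was 2.12 at Mtf2 exon 15 (95% Clopper-Pearson interval 1.15 to 4.21), at the 99.5th percentile of all such sites. It was 0.593 at Jarid2 exon 5 (0.401 to 0.901), at the 21.3rd percentile, and these were the 2 intervals that left out 1. The share of all sites with such an interval is not given here. At the other Jarid2 sites the ratio was 0.623 to 0.747 (25.5th to 44.0th percentile). At Eed exon 1 it was 0.710 (0.487 to 1.04), at the 39.3rd percentile. The Suz12 sites gave 1.17 to 1.52, the highest at exon 14 (0.951 to 2.62), and the Ezh2 sites 0.986 to 1.37. Kdm2b exon 16 gave 0.969 and L3mbtl2 exon 15 gave 0.886. The intervals were computed from the rounded mean reads of the 2 libraries of a protein. They are thus wider than intervals from the summed reads would be. They cover counting error only and take the estimated depths as exact, and reads of a small RNA library are not independent molecules.

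The median log2 ratio over the 14 sites was -0.033 (range -0.75 to 1.08), against -0.34 (-1.84 to 1.51) over the 3566 sites. Its sign did not hold when the median of all sites was set to 0 (0.30), with fold enrichment in place of reads (0.86), in the replicate block (0.064), or without either MBD5 library or the second MBD6 library (0.011 to 0.066), so no direction is given for the 14 sites together. In mean fold enrichment they did not stand apart, with a median of 15.0 against 15.1 for all such sites. Both MBD6 folds exceeded both MBD5 folds at 10 of the 14 sites and at 55.7% of all, in a measure that also rises with depth.

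**Figure D3:**
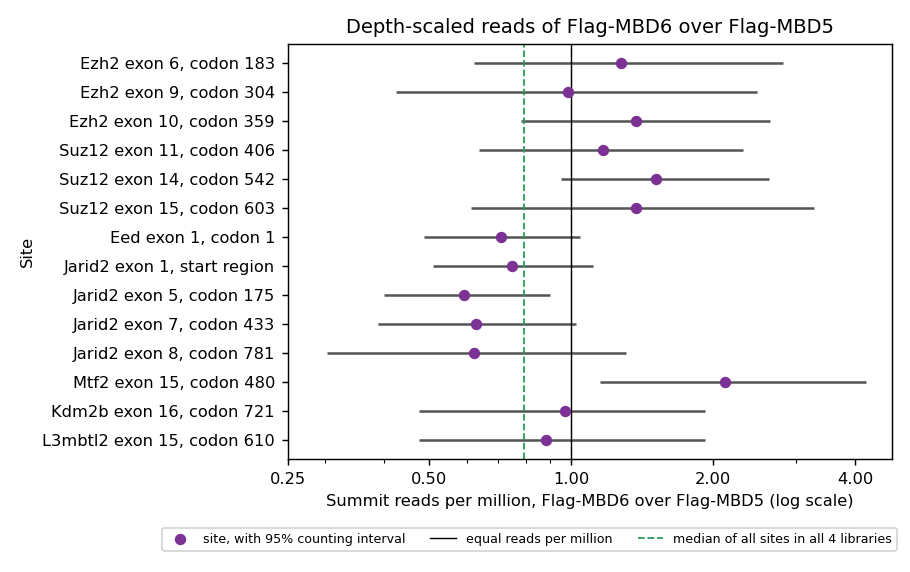
Ratio of MBD6 to MBD5 summit RPM (horizontal axis, log scale) at the 14 sites found in all 4 libraries (points), with 95% Clopper-Pearson counting intervals from mean reads (lines), equality (solid line) and the median of all 3566 such sites (dashed line). Mtf2 exon 15 lies at 2.12 and Jarid2 exon 5 at 0.593, and the other 12 intervals include 1.

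Nearly all sites began in coding sequence. At 15 nt from the 5′ end, which is nearest to the sequenced read because reads were extended to 150 bp without splicing, 27 of 29 sites were coding (93.1%, 95% Clopper-Pearson interval 77.2% to 99.2%), 1 was 5′ UTR (Jarid2 exon 1) and 1 was a non-coding exon (Mtf2). By library, 92.0% to 94.4% of the peaks in the 10 genes began in coding sequence, against 89.9% to 90.7% of all peaks in protein-coding genes. At the midpoint of the peak the mean share was 62.7%, and 7 of the 29 sites had their midpoint in an intron. Of 28 sites placed on a coding transcript, 2 began within 30 nt of the start codon (Ezh2 exon 2 and Eed exon 1), which is 7.14%, against 2.76% of 9571 sites in protein-coding genes. The median position was 39.1% along the coding sequence, against 46.2% for all.

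**Figure D4:**
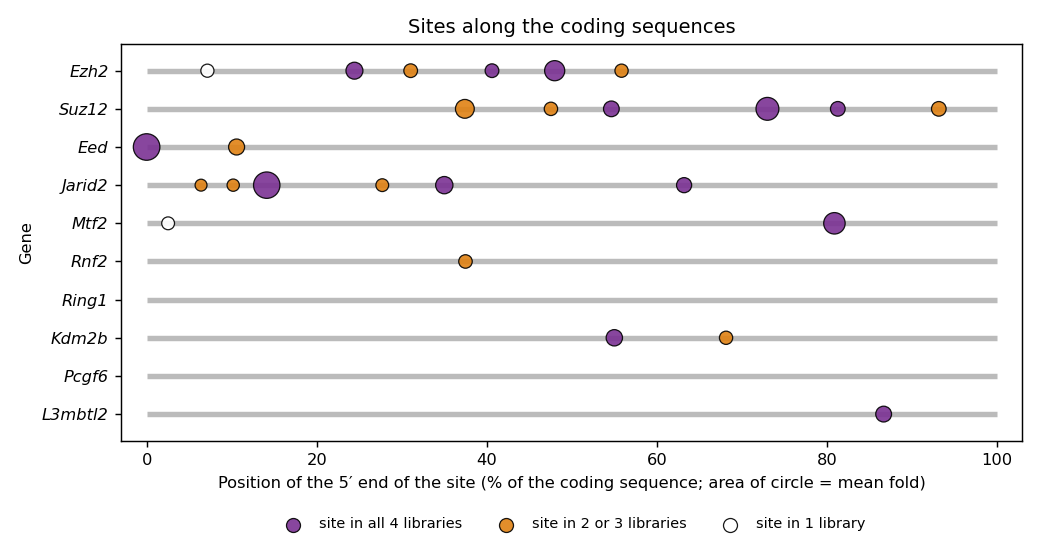
Position of the 5′ end of each site (horizontal axis, percent of the coding sequence) in the 10 Polycomb genes (vertical axis). Circle area is proportional to the mean fold enrichment and colour gives the number of libraries. Jarid2 sites lie in the first 63.2% of its coding sequence, Suz12 sites from 37.4% onward, and the sites of Ezh2 exon 2, Jarid2 exon 1 and the non-coding Mtf2 exon are not drawn.

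A G preceded the 5′ end at 17 of the 28 sites (60.7%, 40.6% to 78.5%), using the library with the highest fold. By library a G preceded 88.2% and 83.3% of the MBD5 peaks in the 10 genes and 62.5% and 65.4% of the MBD6 peaks. Over all peaks in protein-coding genes the shares were 83.3% and 82.8% for MBD5 and 74.0% and 73.3% for MBD6, so the order of the proteins was not particular to these genes. The first 30 nt were 40.8% and 40.6% A for MBD5 and 37.4% for each MBD6 library, and over all peaks 37.3% to 38.7%.

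Codons for the acidic residues glutamate and aspartate were counted at the start of the peaks. In the first 30 nt of the peaks, 21.6% and 22.8% of codons were acidic for MBD5 and 19.2% and 19.5% for MBD6. The whole coding sequences of the 10 genes had 13.4% acidic codons, and those of all protein-coding genes 11.6%. All peaks in protein-coding genes had 22.9% to 23.3%, so the share in the Polycomb genes was close to that of peaks at large. An acidic codon was present at 19 of the 28 sites, and by library in 70.8% to 88.9% of the windows of the 10 genes, against 78.6% to 81.0% over all peaks. Lysine codons made up 17.0% and 14.6% for MBD5 and 7.94% and 11.4% for MBD6, against 13.0% to 13.7% in all peaks. Overlapping peaks of 4 libraries share their sequence, so these shares are not independent of each other.

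Sites with at least 4 acidic codons in the first 30 nt are printed for Ezh2, Suz12 and Kdm2b, from the library with the highest fold, with those codons in capitals. They were chosen after their sequences were seen. In Ezh2 exon 6, 8 of 9 codons were acidic, all of them aspartate.
Ezh2 exon 6 (chr6:47554172-47554201, minus strand): atGATGATGATGACGATGATggaGATGATc
Suz12 exon 14 (chr11:80029170-80029199, plus strand): atgtcgGAGtttcttGAAtctGAAGATgga
Suz12 exon 15 (chr11:80030014-80030043, plus strand): aaGAAttttctGATgtgaatGAAggaGAGa
Kdm2b exon 19 (chr5:122880670-122880699, minus strand): agcactGAGggagctGAAggcccaGAAGAG
The strongest sites of Ezh2 (exon 10), Mtf2 and Rnf2 had no acidic codon in this window, so such codons were not shared by all strong sites.

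Several genes held more than 1 region. At least 4 reproducible MBD6 regions were found in 3 of the 10 genes, Ezh2 (6), Suz12 (5) and Jarid2 (4), against 2.15% of all protein-coding genes. Their coding lengths were 2238, 2223 and 3702 nt, against a median of 1158 nt in all. The 2.15% is matched neither for length nor for RNA level. With the same number of peaks per library, the MBD6 regions of the 10 genes fell from 23 to 14. For MBD5, Jarid2 had 5 regions, Ezh2 and Suz12 had 3 each, and Eed, Mtf2, Kdm2b and L3mbtl2 had 1 each.

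Of 45 other Polycomb genes, 10 had an MBD5 region, 15 an MBD6 region and 9 a site in all 4 libraries. The list includes subunits that PRC1 and PRC2 share with other complexes. No peak was found in 20 of the 45, against 17683 of all 21951 protein-coding genes. The median coding length of the 45 was 1275 nt. With the same number of peaks per library 9 had an MBD6 region, and 25 had an MBD6 peak in either library. Those with a site in all libraries and the highest fold were Mga, Hdac2, Ehmt1, Usp7, Rbbp4, Ehmt2, Tfdp1 and Aebp2. Mga, a DNA-binding subunit of the variant PRC1 that contains PCGF6, had 8 peaks in each MBD5 library and 15 and 13 in the MBD6 libraries, with folds of 23.4, 18.9, 36.1 and 31.7 at its best site. Hdac2, a histone deacetylase, had folds of 29.3, 23.6, 25.4 and 30.8, and Rbbp4, a core PRC2 subunit, 16.8, 13.4, 15.1 and 17.6. The chromodomain genes Cbx2, Cbx6 and Cbx8 had no peak, nor had Bmi1, Pcgf1 and Pcgf3, which were picked out after their values were seen. Other Cbx and Pcgf genes of the list did have peaks.

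The complexes that act against Polycomb were looked up in the same way, beside the same 17683 of 21951 protein-coding genes without a peak. Of 11 PR-DUB genes, 2 had an MBD5 region, 5 an MBD6 region and 4 no peak. Bap1, the deubiquitinase, was the 1 gene with a site in all libraries (folds 13.9, 7.62, 7.56 and 14.2). The list includes Mbd5 and Mbd6, the mouse genes of the overexpressed proteins, and Mbd5 was 1 of the 2 with an MBD5 region. Whether reads of the human transgene lie behind it was not tested. Of 17 Trithorax and histone H3 methyltransferase genes, 10 had an MBD5 region, 13 an MBD6 region and 2 no peak, at a median coding length of 5604 nt. Kmt2c, Setd1b, Setd1a, Setd2, Kmt2a, Ash2l, Kmt2e and Kmt2b led them, with mean folds of 26.0 (Kmt2c), 25.3 (Setd1b), 24.6 (Setd1a) and 21.6 (Setd2). The share of genes with a region was thus 7 of 10 for MBD5 in the genes described here, 10 of 45 in the other Polycomb genes and 10 of 17 in the Trithorax list. The differences between the lists were not tested.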

How the data were processed

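Peak lists of 4 CLIP libraries (2 Flag-MBD5, 2 Flag-MBD6) were used. Per the study's methods, the authors collapsed identical reads, kept those over 15 nt, removed ribosomal RNA, aligned the rest to mm10 with Bowtie 1.0.0 (up to 3 mismatches, at most 10 places) and called peaks per strand with MACS2, with reads extended to 150 bp, a control not given in the sources used here, a genome size of 130000000 bp and q under 0.01. The same methods kept at most 5 identical aligned reads at a position in the peak calling. SAMtools 1.16.1 is named in the submitters' processing notes. The deposited score is 10 times −log10 q, the fold enrichment deposited with it is a ratio of summit to background signal, and −log10 values of p and q are deposited for each peak. Unspliced alignment and extension carry peaks into introns, and reads across exon junctions are lost.

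Summit reads and background rates were solved from the deposited fold and −log10 p (100% of peaks solved), and the lowest rate times genome size over 150 bp gave the depth. These are estimates, and in a test on simulated data the reads were recovered. The depth ratio of 2.14 limits what Flag-MBD5 could show. Classes, exons and sequences came from GENCODE M21 on mm10, with the principal coding transcript preferred (Python 3.11.15, NumPy 2.4.6, SciPy 1.17.1, Matplotlib 3.10.9). Regions needed both libraries of a protein, and intervals are 95% Clopper-Pearson. The 10 genes, the other gene lists and the rules were chosen with earlier results of these data known. Named in full were, in each gene, the site with the highest mean fold and each site found in all 4 libraries, and in other lists up to 8 genes with such a site, with values of at most 4. The 14 alternatives covered thresholds, equal peak numbers, overlap, assignment, strand, class position, window and scaling, beside the replicate block and leaving out each library. Replicate numbers did not pair the libraries (r = 0.030 across 3566 sites, as a description). A sequence of Jarid2 and a gene of the other Polycomb genes are not reported here.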

Additional observations from a re-analysis of the deposited data

How the results depend on the processing

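Of 76 values recomputed under the 14 alternatives, 66 were kept, and of 48 values with a library left out, 45 were. A count was kept within 1.5 times its value, a share within its 95% interval, and a ratio with the same sign within 1 SD over the 4 pairs of libraries. Kept values still moved, as with a fold of at least 8, where MBD5 regions went from 15 to 10 and sites in all libraries from 14 to 10, and with a window centred on the 5′ end, where the acidic share was 16.2%. The median log2 ratio at the sites of the Polycomb genes found in all 4 libraries was near 0 and changed with nearly every scaling. It was -0.30 with a fold of at least 8, 0.30 with the median of all sites set to 0 and 0.86 with fold enrichment in place of reads. The ratio of peak numbers was 1.73 with a fold of at least 8 and 1 with the same number of peaks per library, where 14 MBD6 regions and 9 other Polycomb genes with an MBD6 region were left. With a peak in either library, 25 other Polycomb genes had an MBD6 region. The coding share was 62.7% at the midpoint and 67.4% at the summit. The cause was not tested, other than the fewer peaks that the stricter settings leave by construction.

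In the replicate block, which pairs libraries by number and averages over the pairs, the ratio of peak numbers was 1.49 and the median log2 ratio 0.064. Only the latter changed its sign. As the averaging differed along with the pairing, the change cannot be credited to the pairing. With each library left out in turn, the median log2 ratio was -0.032 to 0.066, the ratio of peak numbers 1.43 to 1.54, MBD5 regions 15 to 18, MBD6 regions 23 to 27, sites in all libraries 14 to 15, the coding share 92.9% to 93.7%, the share with G before the 5′ end 70.4% to 79.0%, the acidic share 20.1% to 21.3%, and other Polycomb genes with a region 10 to 14 for MBD5 and 15 to 21 for MBD6. The genes with a region stayed 7 for MBD5 and 8 for MBD6. The lowest MBD5 peaks in these genes had 8 and 9 summit reads, against 5 over all peaks of each MBD5 library. How far depth limits the sites without an MBD5 peak was not tested.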
